A study of Mus musculus with 12 samples.

Results

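Livers of mice lacking histone deacetylase 9 (HDAC9 knockout) were compared directly with livers of mice lacking histone deacetylase 6 (HDAC6 knockout). The comparison used 6 of the 12 arrays of the series, 3 for each knockout, chosen by genotype label alone. The other 6 arrays were wild type, 3 from mice on chow with 25% of its energy from fat and 3 from mice on a diet with 60%, and they were used only to give the level of named genes. All mice were females of the C57BL/6 strain aged 8 to 12 weeks, the tissue was whole liver, and 100 ng of RNA per sample was labelled for an Affymetrix Mouse430A array. The sources used here do not give the allele of either knockout, the cells in which the gene was deleted or the diet of the knockouts. A diet that differed between the knockouts therefore cannot be told apart from the genotype. The labels number the replicates without saying that each was its own mouse, so a p-value here rests on the spread among these samples, which may be technical.

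Histone deacetylases remove acetyl groups from lysines of histones and of many other proteins. HDAC6 is a class IIb enzyme, mostly cytoplasmic, whose known substrates include alpha-tubulin, cortactin and the chaperone HSP90, and its gene lies on the X chromosome. HDAC9 is a class IIa enzyme with little catalytic activity of its own, which shuttles between cytoplasm and nucleus and represses genes bound by MEF2 transcription factors.

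Expression was read for 12393 genes on the log2 scale of RMA (robust multi-array average), where a difference of 1 is a doubling, and each gene was represented by its brightest probe set. Over all probe sets, array medians lay between 5.78 and 5.86, and the 6 knockout arrays correlated with each other at r = 0.991 to 0.997. Hepatocyte genes such as albumin and transthyretin were at like levels in both knockouts: the 13 measured hepatocyte markers differed by -0.04 to 0.15, with a median of -0.01. Replicate 2 of the HDAC9 knockout stood apart. Of 29 measured markers of the exocrine pancreas, the organ part that makes digestive enzymes, 23 were highest on that array among all 12. Their summed linear signal was 6328 there, while replicates 1 and 3 of the same knockout gave 1020 and 890, and the HDAC6 knockout 788 to 878. Many results are therefore given with and without that array. A value printed without such a note is from all 6 knockout arrays, and leaving that array out can move it. In whole liver, fewer cells of a type and less RNA per cell cannot be told apart.

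The Hdac6 transcript separated the groups. It read 6.17, 6.16 and 6.50 on the 3 HDAC6 knockout arrays and 7.96, 7.95 and 8.03 on the 3 HDAC9 knockout arrays. All 3 HDAC6 knockout arrays were low, the HDAC9 knockout arrays lay at the wild-type level, and the groups did not overlap. The chow arrays read 7.89, 7.98 and 7.86. Hdac6 was thus 3.25-fold higher in the HDAC9 knockout, a log2 difference of 1.70 (SE 0.12, 95% confidence interval 1.43 to 1.97, limma adjusted p = 0.00196 with the Benjamini-Hochberg method over all genes). Without HDAC9 knockout replicate 2 the difference was 1.72 (limma adjusted p = 0.0151). This difference follows the labels of the HDAC6 knockout arrays.

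The Hdac9 transcript did not separate the groups. Its probe set read 4.06, 4.30 and 4.53 in the HDAC6 knockout and 4.04, 4.17 and 4.40 in the HDAC9 knockout, and 4.18 to 4.39 in chow liver. The groups overlapped. For 30 genes not expected in liver the mean levels ran from 2.34 to 6.94 with a median of 3.86, so Hdac9 was not shown to be above background on any array, and its log2 difference of -0.09 (SE 0.15) says nothing on the deletion. The array therefore does not check the labels of the HDAC9 knockout. Whether its probes lie in the deleted part of the gene is not given in the sources used here. Leaving out HDAC6 knockout replicate 3 turned the sign, to 0.03.

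Apart from Hdac6, a single gene passed the test, and it was higher in the HDAC9 knockout. Onecut1 encodes the liver-enriched transcription factor HNF6, which acts in hepatocyte and bile duct development and whose expression depends on growth hormone. It read 6.43, 6.42 and 6.29 in the HDAC6 knockout and 7.61, 7.52 and 7.52 in the HDAC9 knockout. The HDAC9 knockout arrays were high, with a spread of 0.05 (SD, n = 3) against 0.08 (SD, n = 3) in the HDAC6 knockout, and the groups did not overlap. The log2 difference was 1.17 (SE 0.10, 95% confidence interval 0.95 to 1.40, limma adjusted p = 0.00480), a 2.26-fold higher level. A second probe set of Onecut1 read 5.89, 5.29 and 5.41 in the HDAC6 knockout and 6.61, 6.40 and 6.88 in the HDAC9 knockout. That probe set gave a like difference of 1.10 (SE 0.18), which did not pass when every probe set was tested on its own (limma adjusted p = 0.506).

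Wild-type livers varied widely for Onecut1. The chow arrays read 6.84, 7.60 and 8.15, all above the HDAC6 knockout arrays, and the high-fat arrays 6.39, 7.65 and 7.05. The range of both diets, 6.39 to 8.15, took in the HDAC9 knockout arrays. Through high-fat replicate 1 alone it also took in part of the HDAC6 knockout arrays. When the wild-type arrays entered the fit and their spread was pooled with that of the knockouts, the same difference of 1.17 no longer passed (limma adjusted p = 0.817). The call also ended when a change of at least 1.5-fold was required (limma adjusted p = 0.647), without HDAC6 knockout replicate 2 (limma adjusted p = 0.0630) and without HDAC9 knockout replicate 3 (limma adjusted p = 0.0510). Without HDAC9 knockout replicate 2 it held among the knockout arrays, at 1.19 (limma adjusted p = 0.0379), but not in a fit with the wild-type arrays and without that array (limma adjusted p = 0.9996). With the replicate number as a block it did not pass either (limma adjusted p = 0.0534). Over the 6 fits that each left out 1 array the difference stayed between 1.13 and 1.20.

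**Figure D1:**
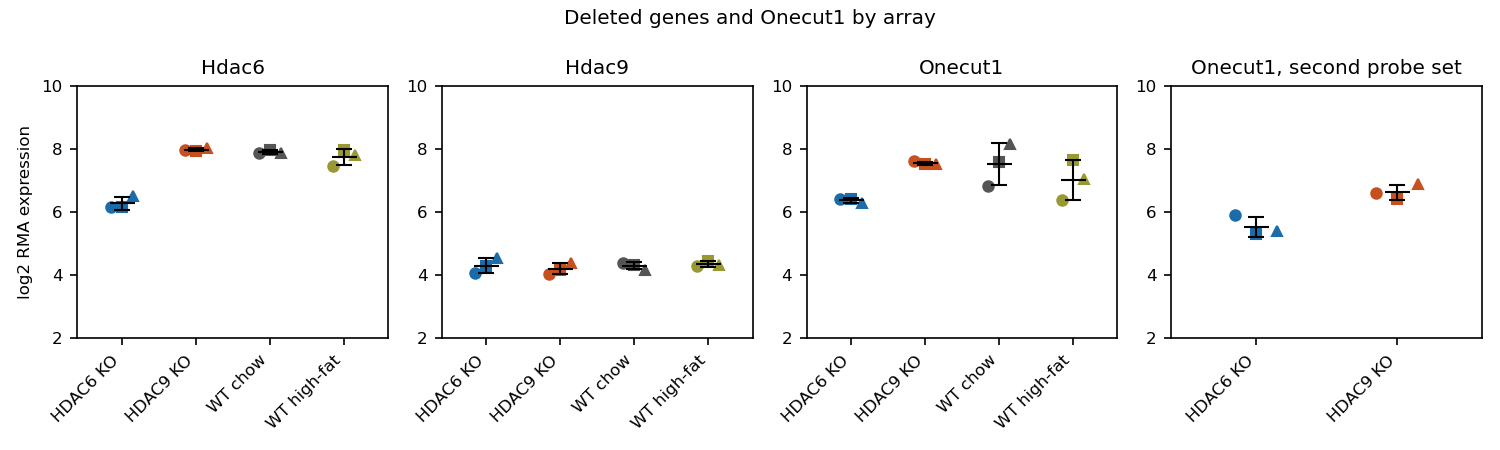
Log2 RMA expression of Hdac6, Hdac9 and Onecut1 on each array (circle, square and triangle are replicates 1, 2 and 3; black bars are the mean ± SD of 3 arrays). Hdac6 is low on the 3 HDAC6 knockout arrays alone, and Hdac9 lies between 4.04 and 4.53 on all 6 knockout arrays. Wild-type Onecut1 values spread from 6.39 to 8.15, while each knockout group is tight.

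Across the whole array few differences passed the test, which with 3 arrays per group does not show that the knockouts were alike. The 2 genes above were all that were called higher, 0.0161% of the genes tested, and 0 genes were called lower. At an unadjusted limma p under 0.05 there were 167 genes higher in the HDAC9 knockout (1.35%) and 257 lower (2.07%), 424 in all or 3.42% of the genes tested. This last count moved with single arrays, to 1134 without HDAC6 knockout replicate 3, 231 without HDAC6 knockout replicate 2 and 671 without HDAC9 knockout replicate 1. The arrays of the groups did not overlap for 464 genes higher in the HDAC9 knockout (3.74%) and 584 genes lower (4.71%), 1048 in all or 8.46%. The median absolute difference was 0.08 on the log2 scale against a median SE of 0.12.

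Large differences were few, and many of them rested on HDAC9 knockout replicate 2. Of 32 genes that differed at least 2-fold, 22 were higher in the HDAC9 knockout, and 20 of these 22 had their highest value on replicate 2. In the exocrine pancreas list were 14 of the 22, among them Cela2a, an elastase, which read 3.74, 3.84 and 3.95 in the HDAC6 knockout and 5.24, 9.87 and 3.79 in the HDAC9 knockout. Cpa1, a carboxypeptidase, read 3.78, 4.05 and 4.03 against 4.89, 8.17 and 4.17. Ctrb1, a chymotrypsinogen, read 4.40, 4.75 and 4.82 against 5.97, 9.29 and 4.68. HDAC9 knockout replicate 1 was also above the HDAC6 knockout arrays for these 3 genes, at a far lower level than replicate 2. The median difference of the 29 pancreas markers was 0.84 with all arrays and 0.13 without replicate 2. Without replicate 2, 3 of the 22 higher genes were still past 2-fold (Hdac6, Onecut1 and Mt2), and 6 of the 10 lower genes (Fmo1, Cyp26a1, Slco1a1, Slc15a2, Hsd3b5 and Ntrk2).

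**Figure D2:**
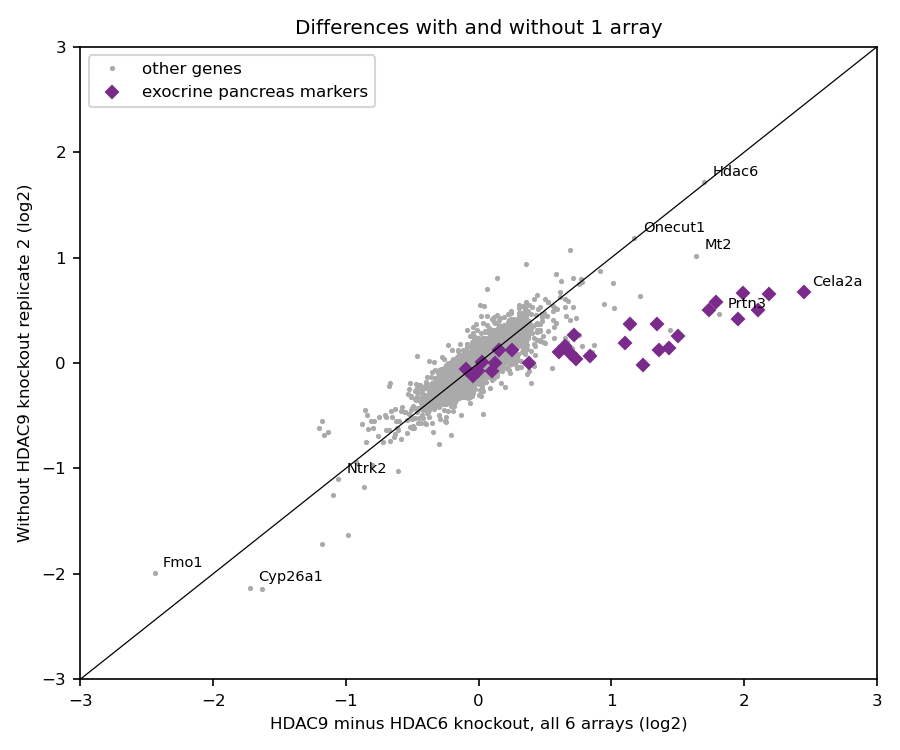
Log2 difference between the knockouts for each of the 12393 genes with all 6 arrays (horizontal axis) and without HDAC9 knockout replicate 2 (vertical axis); the line marks equal values. Exocrine pancreas markers (purple) fall far below the line, from a median of 0.84 to 0.13, while Hdac6 and Onecut1 stay on it.

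Below the threshold, the 15 genes of smallest p in each direction were described by array. Neither direction held a further gene that passed: limma adjusted p ran from 0.689 to 0.9996 among the other 13 higher genes, and from 0.240 to 0.9996 among the 15 lower ones. By this choice all 30 had groups that did not overlap, so that separation is a description. Chow liver did not place the 30 on a single side: all 3 chow arrays lay nearer to the HDAC9 knockout mean for 7 genes, nearer to the HDAC6 knockout mean for 9, and were split for 14.

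**Figure D3:**
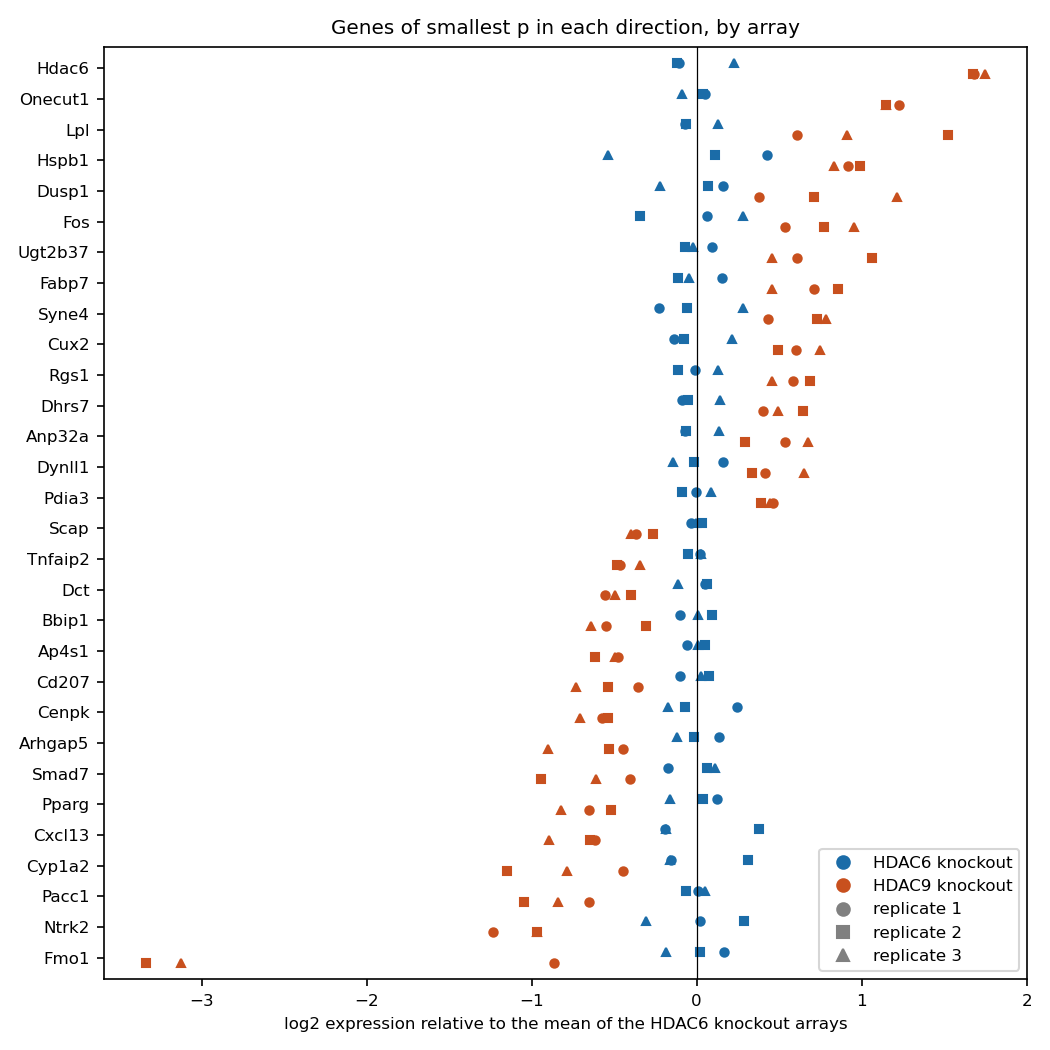
Log2 expression of the 15 genes of smallest p in each direction on each knockout array, relative to the mean of the HDAC6 knockout arrays. The groups separate for every gene shown, Fmo1 has a gap between HDAC9 knockout replicate 1 and the other HDAC9 knockout arrays, and of these genes Hdac6 and Onecut1 passed the test.

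Among genes of fat handling, Lpl was higher and Pparg lower in the HDAC9 knockout, without passing. Lpl encodes lipoprotein lipase, which frees fatty acids from circulating triglyceride and is low in adult hepatocytes. It read 8.73, 8.74 and 8.94 in the HDAC6 knockout and 9.41, 10.33 and 9.71 in the HDAC9 knockout. All 3 HDAC9 knockout arrays were high, replicate 2 most of all, and chow liver at 8.30 to 8.89 lay with the HDAC6 knockout. The log2 difference was 1.01 (SE 0.20, limma adjusted p = 0.689), it was 0.76 without replicate 2, and a second Lpl probe set gave 1.10 (SE 0.23). Pparg, the nuclear receptor that drives fat storage, read 6.72, 6.63 and 6.44 against 5.95, 6.08 and 5.77. Its difference was -0.66 (SE 0.13, limma adjusted p = 0.689), and chow liver at 5.99 to 6.65 spanned the gap.

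The list of fatty acid uptake and lipid droplet genes, with Lpl and Pparg among them, differed in both directions. Of 28 measured, 17 were higher and 11 lower in the HDAC9 knockout, with a median of 0.04, and 0 were called. At an unadjusted limma p under 0.05 there were 3 higher and 2 lower, Lpl and Pparg included, beside 1.35% and 2.07% of all genes. Cd36, a fatty acid transporter, differed by 0.32 (SE 0.13), or 0.20 without HDAC6 knockout replicate 1. Fabp4, the fatty acid carrier of adipocytes and macrophages, differed by 0.36 (SE 0.14), and its sign turned to -0.19 when probe sets with shared probes were removed. Scap and Fabp7 were taken from the genes of smallest p in each direction. Scap, the escort of the sterol-regulated SREBP factors, was lower, reading 10.50, 10.56 and 10.53 against 10.16, 10.27 and 10.13. Its difference was -0.34 (SE 0.08, limma adjusted p = 0.871). Fabp7, a fatty acid carrier best known from brain, was higher, with a difference of 0.67 (SE 0.13). Of 13 adipocyte markers, Adipoq, the adipocyte hormone adiponectin, read 4.96 on HDAC9 knockout replicate 2 and 2.62 to 2.93 on the other 5 knockout arrays. Of the 13, 8 were higher and 5 lower, and 3 had their highest value of all 12 arrays on that replicate. The centred list median lay between -0.12 and 0.12 on the HDAC6 knockout arrays and between -0.03 and 0.07 on the HDAC9 knockout arrays.

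Among genes lower in the HDAC9 knockout Fmo1 had the largest difference, and its HDAC9 knockout arrays were far apart. It encodes a flavin-containing monooxygenase that oxidizes drugs and other amines and sulfur compounds. It read 11.66, 11.51 and 11.31 in the HDAC6 knockout and 10.63, 8.16 and 8.37 in the HDAC9 knockout. HDAC9 knockout replicates 2 and 3 were very low, replicate 1 was less low, and the chow arrays at 11.47 to 11.60 lay with the HDAC6 knockout. The log2 difference was -2.44 (SE 0.53, limma adjusted p = 0.871), a 5.43-fold lower mean level. Without HDAC9 knockout replicate 1 it was -3.23 and passed (limma adjusted p = 1.20e-05), and without replicate 2 it was -1.99 and did not. The list of flavin monooxygenases and Cyp2 enzymes showed no common shift, with 8 of 21 members higher, 13 lower and a median of -0.01, and 11 and 10 without replicate 2.

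Pericentral genes, which hepatocytes express around the central vein, numbered 25, of which 8 were higher and 17 lower in the HDAC9 knockout, with a median of -0.08 and 0 called by limma. Without replicate 2 the counts were 11 and 14 and the median -0.07. At an unadjusted limma p under 0.05, 0 were higher and 4 lower, beside 1.35% and 2.07% of all genes. The targets of CAR and PXR, the receptors that sense drugs, numbered 21, of which 9 were higher and 12 lower (median -0.01), and 15 and 6 without replicate 2 (median 0.06). Cyp1a2, the main caffeine-oxidizing cytochrome P450, read 11.27, 11.74 and 11.26 in the HDAC6 knockout and 10.97, 10.28 and 10.64 in the HDAC9 knockout. Its HDAC9 knockout arrays were low, and the chow arrays at 11.52 to 11.61 lay with the HDAC6 knockout. The difference was -0.79 (SE 0.18, limma adjusted p = 0.943), or -0.62 without HDAC9 knockout replicate 2. Ahr, the receptor that drives Cyp1a2 transcription, read 9.47, 9.75 and 9.02 in the HDAC6 knockout, and all 3 HDAC9 knockout arrays were lower, with a mean of 8.79 ± 0.18 (SD, n = 3). Its difference was -0.62 (SE 0.17, limma adjusted p = 0.9996), while a second Ahr probe set gave 0.06 (SE 0.13) and the mean of both gave -0.28. Oat, ornithine aminotransferase, differed by -0.85 (SE 0.37) with all arrays, by -0.45 without replicate 2 and by -1.32 without replicate 1.

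For bile acid synthesis and transport, 6 of 29 genes were higher and 23 lower, with a median of -0.13. Without HDAC9 knockout replicate 2 the counts were 11 and 18 and the median -0.04, and without replicate 1 they were 3 and 26 with a median of -0.22. Cyp27a1, which starts the acidic pathway of bile acid synthesis, differed by -0.21 (SE 0.08). Slc27a5, the bile acid CoA ligase, differed by -0.20 (SE 0.08). Klb, the FGF coreceptor beta-Klotho, differed by -0.26 (SE 0.09), or -0.13 with the mean of its probe sets. Each of these 3 was lower on all HDAC9 knockout arrays than on any HDAC6 knockout array. They were picked as members of smallest p, so that separation is a description. Over the list the groups did not overlap for 10.3% of genes, beside 8.46% of all genes. Slco1a1, an organic anion and bile acid uptake carrier, read 9.04, 8.09 and 6.88 against 5.01, 7.39 and 6.70, which overlapped, and chow liver read 8.88 to 10.86. Its difference was -1.63 (SE 0.63), -2.14 without HDAC9 knockout replicate 2 and -0.96 without replicate 1.

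Genes controlled by the growth hormone pattern of each sex were described next to Onecut1. Liver sex differences in mice follow from pulsatile growth hormone in males and steady growth hormone in females, acting through STAT5, and Cux2 is a repressor found mainly in female liver. Of the 16 measured genes of the growth hormone and STAT5 axis, 10 were higher and 6 lower, and the median was 0.10. The 1 called, beside 0.0161% of all genes, was Onecut1, already singled out above. Without HDAC9 knockout replicate 2 the counts were 7 and 9 and the median was -0.02. Cux2 read 7.06, 7.11 and 7.41 in the HDAC6 knockout and 7.79, 7.68 and 7.94 in the HDAC9 knockout. The HDAC9 knockout arrays were high and chow liver at 7.50 to 7.96 lay with them. The difference was 0.61 (SE 0.12, limma adjusted p = 0.771). Stat5b, the main growth hormone signal carrier, read 8.54, 8.52 and 8.47 against 8.38, 8.14 and 7.98, a difference of -0.35 (SE 0.11). Igfbp3, which carries IGF1 in blood, read 7.31, 7.19 and 7.17 against 6.80, 6.81 and 6.89, a difference of -0.39 (SE 0.10). For both genes the HDAC9 knockout arrays were the lower ones without overlap, as for 4.71% of all genes. Over the list the groups did not overlap for 31.2% of genes, Onecut1 among them, beside 8.46% of all genes. At an unadjusted limma p under 0.05, 2 members were higher and 4 lower, beside 1.35% and 2.07% of all genes.

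Sex-biased target genes moved in no common direction. Of 18 male-biased genes 10 were higher and 8 lower (median 0.08, and -0.04 without replicate 2), and of 21 female-biased genes 11 were higher and 10 lower (median 0.01). At an unadjusted limma p under 0.05, 3 female-biased genes were higher and 5 lower, beside 1.35% and 2.07% of all genes. For male-biased genes these counts were 0 and 2. The groups did not overlap for 14.3% of the female-biased genes and 0% of the male-biased ones, beside 8.46% of all genes. Ntrk2, a neurotrophin receptor that is female-biased in liver, read 7.95, 8.22 and 7.62 in the HDAC6 knockout and 6.70, 6.96 and 6.96 in the HDAC9 knockout. The HDAC6 knockout arrays were high with the high-fat arrays at 7.87 to 8.17, and the HDAC9 knockout arrays were low with chow at 6.71 to 7.39. The difference was -1.06 (SE 0.16, limma adjusted p = 0.240), and a second Ntrk2 probe set gave -0.17 (SE 0.11) and the mean of both -0.62. The second probe set had a mean of 3.19 in the HDAC6 knockout and 3.02 in the HDAC9 knockout. These lay under the median of 3.86 for genes not expected in liver, so its difference does not check that of the first. Hao2, a hydroxy acid oxidase, differed by -0.59 (SE 0.19) and by -0.38 without HDAC6 knockout replicate 2, and Fmo2 by 0.36 (SE 0.13). Among male-biased genes, Hsd3b5, a steroid-metabolizing enzyme, read 6.62, 5.93 and 4.21 against 4.10, 4.80 and 4.56. The difference of -1.10 (SE 0.50) was -0.58 without HDAC6 knockout replicate 1 and -1.79 without replicate 3. Chow liver read 6.63 to 9.49 for Hsd3b5, above every knockout array. Cyp2d9 differed by 0.62 (SE 0.30), or 0.24 without HDAC6 knockout replicate 3, and Ugt2b1 by -0.27 (SE 0.11), both with overlapping groups.

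Most protein-folding genes had a higher mean in the HDAC9 knockout, without passing the test. HSP70 and HSP90 chaperones fold proteins in the cytosol, small heat shock proteins such as Hspb1 hold unfolded proteins, and the protein disulfide isomerases and calreticulin act in the endoplasmic reticulum (ER). Of 33 measured genes of the heat shock and ER folding list, 28 were higher in the HDAC9 knockout and 5 lower, with a median of 0.19, beside a median of -0.00084 over all genes. Without HDAC9 knockout replicate 2 the counts were 26 and 7 and the median 0.20. None was called by limma. At an unadjusted limma p under 0.05, 11 were higher and 0 lower, and for 10 all HDAC9 knockout arrays lay above all HDAC6 knockout arrays, beside 1.35% and 3.74% of all genes. Centred on each gene's mean of the 6 arrays, the list median was -0.03, -0.11 and -0.16 on the HDAC6 knockout arrays and 0.05, 0.11 and 0.10 on the HDAC9 knockout arrays. On that scale the chow arrays read 0.33, 0.16 and -0.02, so wild-type liver reached from above the HDAC9 knockout to between the groups.

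The leading members were chaperones of the cytosol and the ER. Hspb1 read 9.33, 9.01 and 8.36 in the HDAC6 knockout and 9.82, 9.89 and 9.74 in the HDAC9 knockout. The HDAC6 knockout arrays were the lower and more scattered ones, and chow liver spanned the gap at 8.75 to 9.94. The difference was 0.91 (SE 0.21, limma adjusted p = 0.871). Pdia3, an ER disulfide isomerase that works with calreticulin, read 10.63, 10.55 and 10.72 against 11.10, 11.02 and 11.08, a difference of 0.43 (SE 0.08, limma adjusted p = 0.689). Ahsa1, which activates the HSP90 ATPase, read 9.11, 8.85 and 9.02 against 9.27, 9.34 and 9.49, a difference of 0.38 (SE 0.10). Calr, calreticulin, read 12.15, 11.95 and 12.03 against 12.35, 12.30 and 12.28, a difference of 0.27 (SE 0.08). Hsp90aa1, the inducible HSP90 whose protein HDAC6 deacetylates, read 10.39, 10.24 and 10.02 against 10.57, 10.52 and 11.43. Its difference of 0.62 (SE 0.22, limma adjusted p = 0.9996) was 0.33 without HDAC9 knockout replicate 3. Hspa5, the ER HSP70 known as BiP, differed by 0.03 (SE 0.09).

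**Figure D4:**
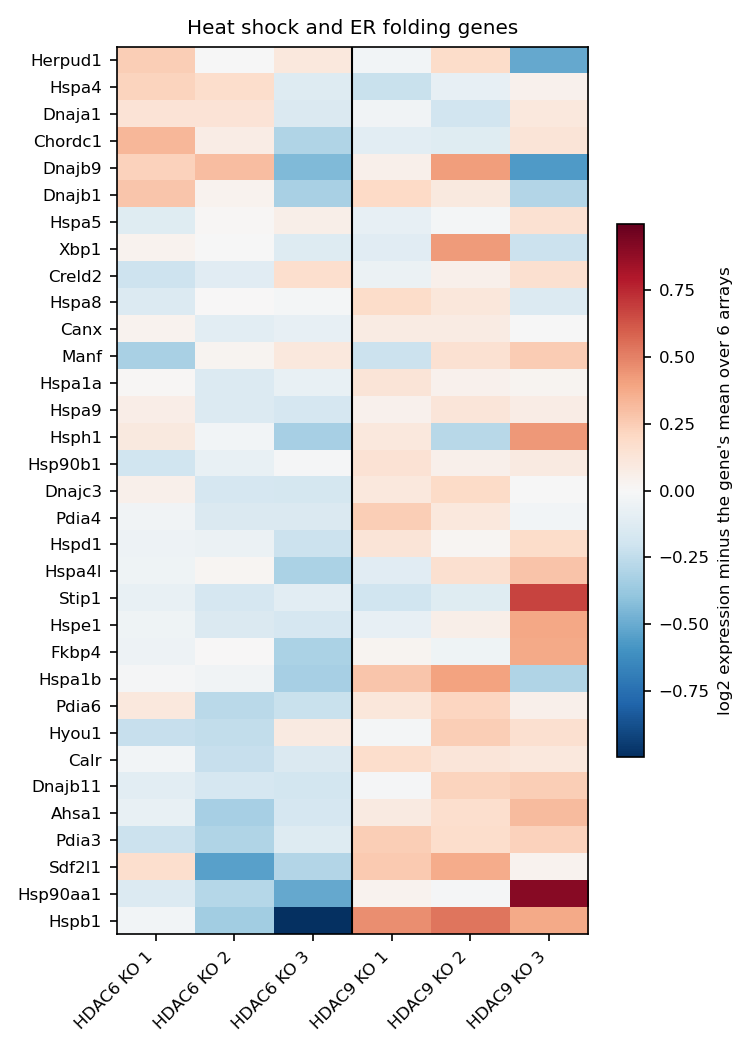
Log2 expression of the 33 measured heat shock and ER folding genes on the 6 knockout arrays, each centred on its mean (red higher, blue lower), in order of the difference. In 28 genes the HDAC9 knockout mean is the higher one, from Hspb1 at the bottom up to genes such as Hspa5 with a difference near 0.

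Promoter sequences of these genes were read because ER folding genes share a known element that their stress-activated factors bind. The ER stress response element was searched as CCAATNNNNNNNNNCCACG on both strands in the 250 bases before each RefSeq start site (GRCm38.p6). Of 33 list members 28 had a promoter in the RefSeq table, and 7 held the element, beside 0.13% of the 27025 genes in the table (0.113% of its 32851 promoters). All 7 had a higher mean in the HDAC9 knockout (median difference 0.19), as had 16 of the 21 members without it (median 0.22). The stretches below are shown to let the element be seen in members with larger and with smaller differences; capitals mark it.
Pdia6, chr12:17266471-17266529 on the plus strand, difference 0.25: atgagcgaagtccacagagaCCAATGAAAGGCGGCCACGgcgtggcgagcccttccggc
Dnajc3, chr14:118937807-118937865 on the plus strand, difference 0.19: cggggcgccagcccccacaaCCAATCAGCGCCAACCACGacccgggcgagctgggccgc
Hsp90b1, chr10:86705618-86705676 on the minus strand, difference 0.19: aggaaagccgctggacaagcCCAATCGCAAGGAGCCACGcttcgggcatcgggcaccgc
Canx, chr11:50325780-50325838 on the minus strand, difference 0.11: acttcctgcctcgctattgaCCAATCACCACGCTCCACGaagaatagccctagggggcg
Hspa5, chr2:34772005-34772063 on the plus strand, difference 0.03: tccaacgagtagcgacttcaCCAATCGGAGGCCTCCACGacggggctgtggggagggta

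The heat shock element was searched in the same windows as GAANNTTCNNGAA, on both strands. It was found in 0.514% of these genes (0.466% of promoters) and in 2 of the 28 list members, Hspd1 and Hspe1, the mitochondrial chaperonin and its cochaperonin, which are transcribed in opposite directions from a shared promoter region. The stretch of Hspd1 holds 2 overlapping matches. Capitals mark the one in the form of the reverse complement. The forward match starts within the capitals and runs into the lower-case bases.
Hspd1, chr1:55088044-55088096 on the minus strand: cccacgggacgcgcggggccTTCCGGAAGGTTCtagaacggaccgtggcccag
Hspd1 differed by 0.22 (SE 0.08) and Hspe1 by 0.24 (SE 0.12), and of the 26 other members 21 had a higher mean in the HDAC9 knockout. Hspb1, the member with the largest difference, did not hold these letters in the window searched.

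Genes of the deacetylase family and of the known partners of either enzyme showed few differences beside Hdac6. Of 13 measured deacetylases and sirtuins 3 were higher and 10 lower, and Hdac6 was the called one. Hdac5, a class IIa relative of HDAC9, read 7.91, 7.81 and 8.08 in the HDAC6 knockout and 7.73, 7.55 and 7.74 in the HDAC9 knockout, a difference of -0.26 (SE 0.11). Hdac11 read 8.22, 8.17 and 8.16 against 8.02, 8.12 and 7.82, a difference of -0.20 (SE 0.10), or -0.11 without HDAC9 knockout replicate 3. Both were lower on every HDAC9 knockout array than on any HDAC6 knockout array, as were 4.71% of all genes. Of 13 HDAC6 substrates and partners 9 were higher and 4 lower, with a median of 0.07. Besides Hsp90aa1, the tubulin gene Tuba8 differed by 0.33 (SE 0.15; 0.19 without HDAC9 knockout replicate 3), Vcp by 0.10 (SE 0.08) and cortactin, Cttn, by -0.10 (SE 0.09), with overlapping groups. Of 13 MEF2 factors and class IIa partners 6 were higher and 7 lower, with 3 lower and 0 higher at an unadjusted limma p under 0.05, beside 2.07% and 1.35% of all genes. Mef2c read 5.83, 5.82 and 5.80 against 5.65, 5.45 and 5.54, a difference of -0.27 (SE 0.11), or -0.11 with the mean of its probe sets. Mef2b differed by -0.38 (SE 0.14). Tuba8 and Mef2b had group means of 4.23 to 4.89, within the range of 2.34 to 6.94 for genes not expected in liver. These 2 genes were not shown to be above background. Ywhae, a 14-3-3 protein of the kind that holds class IIa enzymes in the cytoplasm, differed by 0.15 (SE 0.08), or 0.09 without HDAC6 knockout replicate 3.

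Immediate-early genes, which respond within minutes to growth signals and stress, were higher in part. Of 25 measured, 18 were higher and 7 lower in the HDAC9 knockout, with a median of 0.09 (0.05 without replicate 2), and 5 were higher and 2 lower at an unadjusted limma p under 0.05, beside 1.35% and 2.07% of all genes. The centred list median was -0.04, -0.10 and -0.04 on the HDAC6 knockout arrays and -0.12, 0.13 and 0.13 on the HDAC9 knockout arrays. HDAC9 knockout replicate 1 thus lay below all HDAC6 knockout arrays. Fos read 6.14, 5.74 and 6.36 in the HDAC6 knockout and 6.62, 6.85 and 7.03 in the HDAC9 knockout. The difference was 0.75 (SE 0.17, limma adjusted p = 0.943), and chow liver at 5.22 to 6.14 lay with the HDAC6 knockout. Dusp1, a phosphatase that ends MAP kinase signalling, read 8.93, 8.84 and 8.55 against 9.15, 9.49 and 9.99. The difference was 0.77 (SE 0.19, limma adjusted p = 0.9996), and the high-fat arrays were higher than either at 10.49 to 11.07. Zfp36, which speeds the decay of cytokine mRNAs, differed by 0.56 (SE 0.16) and Jun by 0.58 (SE 0.22), or 0.32 with the mean of its probe sets. Without HDAC9 knockout replicate 2 the difference of Jun was 0.84. Smad7, the inhibitor of TGF-beta signalling, was lower, reading 8.09, 8.33 and 8.37 against 7.86, 7.32 and 7.65, a difference of -0.65 (SE 0.15, limma adjusted p = 0.871). It was -0.51 without HDAC9 knockout replicate 2.

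Glucocorticoid targets and metallothioneins had no common direction, with 9 of 19 higher and 10 lower, and 11 and 8 without HDAC9 knockout replicate 2. Mt2, a metal-binding metallothionein, read 7.79, 7.81 and 9.33 in the HDAC6 knockout and 8.96, 11.19 and 9.70 in the HDAC9 knockout. The groups overlapped, and the difference was 1.64 (SE 0.56), or 1.02 without replicate 2. Sgk1, a glucocorticoid-induced kinase, differed by -0.25 (SE 0.09), and Gadd45b, a stress-induced gene, by 0.31 (SE 0.13), or 0.12 with the mean of its probe sets. Both were without overlap, as were 26.3% of this list and 8.46% of all genes in either direction. At an unadjusted limma p under 0.05, 4 members of the list were higher and 2 lower, beside 1.35% and 2.07% of all genes.

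Acute phase proteins, which the liver secretes in inflammation, were higher on HDAC9 knockout replicate 2. Of 34 measured, 31 were higher in the HDAC9 knockout and 3 lower, with a median of 0.23. Without replicate 2 the counts were 24 and 10 and the median 0.08. The centred list median was -0.06, -0.19 and -0.03 on the HDAC6 knockout arrays and 0.01, 0.39 and -0.09 on the HDAC9 knockout arrays, with replicate 2 far above the other 5 arrays. Orm2, an orosomucoid, read 8.17, 7.51 and 7.65 against 8.37, 9.49 and 8.30, a difference of 0.95 (SE 0.30), or 0.56 without replicate 2. Lrg1 read 11.17, 10.97 and 11.21 against 11.68, 12.36 and 11.37, a difference of 0.69 (SE 0.21), or 0.41 without replicate 2. Stat3, which carries the interleukin 6 signal, differed by 0.42 (SE 0.17), or 0.18 without replicate 2. That array also held the pancreas transcripts, and the part of these in the acute phase values was not tested.

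Genes of MHC class II antigen presentation were lower on part of the HDAC9 knockout arrays. Of 14 such genes, 3 were higher and 11 lower in the HDAC9 knockout, with a median of -0.18 (-0.13 without HDAC9 knockout replicate 2 and -0.05 without HDAC6 knockout replicate 3). H2-Aa, an MHC class II chain, read 9.82, 9.94 and 10.34 in the HDAC6 knockout and 9.89, 8.54 and 9.03 in the HDAC9 knockout. HDAC9 knockout replicate 1 lay within the HDAC6 knockout range and the other 2 arrays below it. The difference was -0.88 (SE 0.29), or -0.57 without replicate 2. Of the 26 markers of Kupffer cells and macrophages 16 were higher and 10 lower, with a median of 0.03. Without HDAC9 knockout replicate 2 the counts were 11 and 15 and the median -0.01. Their centred list median was 0.04, 0.14 and -0.13 on the HDAC9 knockout arrays. Among the knockout arrays it was highest on replicate 2 of the HDAC9 knockout, where H2-Aa was lowest, and lowest on replicate 3. H2-Eb1 differed by -0.83 (SE 0.25), H2-Ab1 by -0.75 (SE 0.26) and Ciita, the master activator of these genes, by -0.34 (SE 0.14; -0.21 when probe sets with shared probes were removed), all with overlapping groups. Without HDAC9 knockout replicate 2 the differences were -0.63 for H2-Eb1, -0.51 for H2-Ab1 and -0.23 for Ciita. Cxcl13, a B cell attractant, read 6.67, 7.24 and 6.67 against 6.24, 6.21 and 5.97, a difference of -0.72 (SE 0.17, limma adjusted p = 0.982). Cd207, the lectin langerin of some dendritic cells, read 5.94, 6.11 and 6.07 against 5.68, 5.50 and 5.31, a difference of -0.54 (SE 0.13).

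Neutrophil markers were higher in 15 of 18 cases, with a median of 0.19 (0.16 without replicate 2). The centred list median was -0.27, -0.10 and 0.14 on the HDAC6 knockout arrays and 0.05, 0.12 and 0.04 on the HDAC9 knockout arrays. HDAC6 knockout replicate 3 thus lay above all HDAC9 knockout arrays. The median level of the list was 4.33, within the range of genes not expected in liver. The groups did not overlap for 5 higher genes and 1 lower one, beside 3.74% and 4.71% of all genes. Il1b, the cytokine interleukin 1 beta, read 6.20, 6.17 and 5.89 against 6.47, 6.42 and 6.38, a difference of 0.34 (SE 0.12). Lcn2, lipocalin 2, read 6.23, 6.35 and 7.48 against 7.86, 8.71 and 6.55, which overlapped, with a difference of 1.02 (SE 0.50), or 0.52 without replicate 2. Prtn3, the neutrophil protease proteinase 3, read 8.71 on HDAC9 knockout replicate 2 and 4.02 to 4.92 on the other 5 knockout arrays. That is the array pattern of pancreas markers such as Cpa1, and the acute phase proteins were high on the same array; the part of either in these values was not tested. The summed linear signal of the 18 markers was 487 to 674 in the HDAC6 knockout and 731, 1381 and 612 in the HDAC9 knockout. Of 27 markers of T, NK and B lymphocytes 9 were higher and 18 lower, with a median of -0.08. Rgs1, a member of that list that went against its median and a brake on chemokine receptor signalling in leukocytes, read 5.17, 5.07 and 5.31 against 5.77, 5.87 and 5.64, a difference of 0.58 (SE 0.12, limma adjusted p = 0.871).

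**Figure D5:**
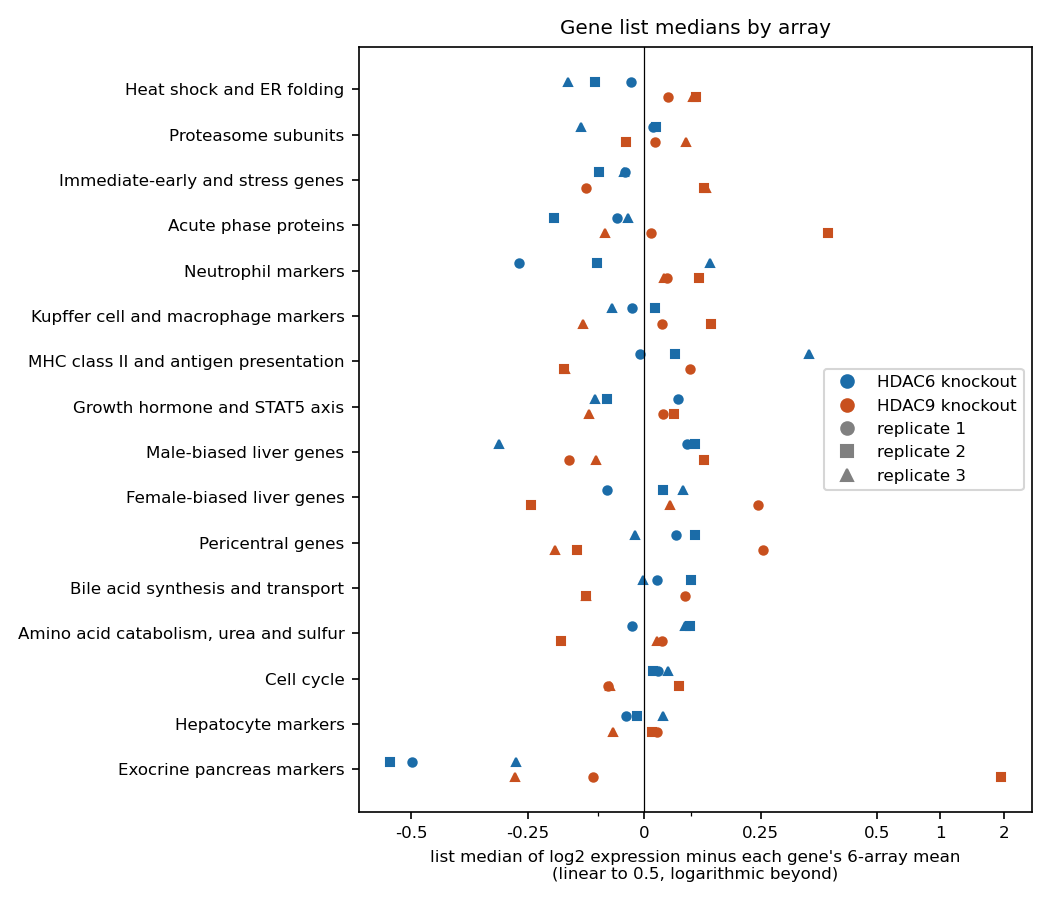
Median over each gene list of log2 expression minus the gene's mean of 6 arrays, for each knockout array; the axis is linear near 0 and logarithmic for larger values. Of the lists shown, the heat shock and ER folding list separates the groups (-0.16 to -0.03 against 0.05 to 0.11), whereas the pancreas and acute phase lists stand out on HDAC9 knockout replicate 2. Some lists not shown separate them too, in the other direction. Examples are the deacetylase and sirtuin list (0.03 to 0.07 against -0.06 to -0.03) and the stellate cell and matrix list (0.04 against -0.07 to -0.02).

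Retinoid genes varied strongly within the groups. Of 19 measured, 9 were higher and 10 lower, with a median of -0.01. Without HDAC9 knockout replicate 2 the counts were 12 and 7 and the median 0.04. Cyp26a1, which breaks down retinoic acid and is itself induced by it, read 8.68, 10.82 and 10.85 in the HDAC6 knockout and 7.50, 9.21 and 8.47 in the HDAC9 knockout. HDAC6 knockout replicate 1 lay within the HDAC9 knockout range, and the difference was -1.72 (SE 0.58, limma adjusted p = 0.9996). Rarb, a retinoic acid receptor that is also a retinoic acid target, read 6.30, 7.06 and 7.05 against 5.86, 5.47 and 6.66, a difference of -0.81 (SE 0.30). Lrat, which stores retinol as ester, differed by -0.71 (SE 0.24). Without HDAC9 knockout replicate 2 the differences were -2.13 for Cyp26a1, -0.55 for Rarb and -0.49 for Lrat. For all 3 genes the lowest HDAC6 knockout array was replicate 1. Dhrs7, a short-chain dehydrogenase, was higher, reading 9.08, 9.12 and 9.31 against 9.58, 9.82 and 9.67, a difference of 0.52 (SE 0.10, limma adjusted p = 0.689).

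Cell cycle genes, low in resting liver, were lower in 26 of 39 cases and higher in 13, with a median of -0.07. Without HDAC9 knockout replicate 2 they were lower in 31 and higher in 8, with a median of -0.09. At an unadjusted limma p under 0.05, 5 were lower and 0 higher, beside 2.07% and 1.35% of all genes. The median level of the list was 4.56, within the range of genes not expected in liver. Aurka, a mitotic kinase, read 3.77, 3.74 and 3.76 against 3.40, 3.22 and 3.46 and was not shown to be above background on any array. Cenpa, the centromeric histone, read 5.93, 5.70 and 5.76 against 5.32, 5.58 and 5.03, a difference of -0.49 (SE 0.15). Cenpk, a kinetochore protein, read 4.91, 4.60 and 4.50 against 4.10, 4.13 and 3.96, a difference of -0.61 (SE 0.13, limma adjusted p = 0.871), and chow liver at 4.69 to 5.06 lay with the HDAC6 knockout. The list median came to -0.0011 when all probe sets of a gene were averaged, and Mcm3, a replication helicase subunit with a difference of -0.29 (SE 0.11), turned to 0.07 when probe sets with shared probes were removed.

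The remaining genes of smallest p came from unrelated functions. Higher in the HDAC9 knockout were Ugt2b37, a glucuronosyltransferase (0.71, SE 0.15), Anp32a, a nuclear acidic protein that inhibits histone acetylation (0.50, SE 0.12; 0.02 when probe sets with shared probes were removed), Dynll1, a dynein light chain (0.47, SE 0.11), and Syne4, a nuclear envelope linker to the cytoskeleton (0.65, SE 0.16; 0.34 with shared-probe sets removed). Without HDAC9 knockout replicate 2 the difference of Ugt2b37 was 0.53. Lower were Ap4s1, a subunit of a vesicle adaptor (-0.53, SE 0.09), Dct, dopachrome tautomerase (-0.48, SE 0.09), Tnfaip2 (-0.43, SE 0.09), Arhgap5 (-0.63, SE 0.13; -0.27 with the mean of its probe sets), and Bbip1, a subunit of the cilium BBSome (-0.50, SE 0.11). Pacc1, a proton-activated chloride channel, read 7.34, 7.27 and 7.38 in the HDAC6 knockout and 6.67, 6.28 and 6.49 in the HDAC9 knockout. Its difference was -0.85 (SE 0.12, limma adjusted p = 0.240), and chow liver spread from 5.77 to 7.12. The 4 other probe sets of Pacc1 gave -0.06 to 0.28, and the mean of all its probe sets -0.11. Those 4 had group means of 3.12 to 3.97, near the median of 3.86 for genes not expected in liver. They were not shown to be above background, so they do not check the difference of the first.

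Genes next to the deleted ones on the chromosome were read as well, and none passed the test. Of the 20 nearest measured genes around Hdac6 on chromosome X, 0 were called by limma, 0 had an unadjusted p under 0.05, and the differences lay between -0.21 and 0.21. Of the 20 around Hdac9 on chromosome 12, 0 were called by limma and 2 had an unadjusted p under 0.05, Ahr and Sypl. Sypl, a synaptophysin-like vesicle protein 1.09 Mb away, read 9.52, 9.52 and 9.35 in the HDAC6 knockout and 9.13, 9.19 and 9.04 in the HDAC9 knockout, a difference of -0.34 (SE 0.09), or -0.12 with the mean of its probe sets. The chow arrays read 9.06, 9.53 and 9.45 for Sypl and so spanned both knockouts.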

How the data were processed

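RNA of 12 whole-liver samples was measured on Affymetrix Mouse430A arrays. The authors deposited log2 values per probe set made with RMA, per the submitters' processing notes, which name no software version or chip definition, and they were used as deposited. Of 22626 probe sets, 20380 had 1 gene symbol in the platform annotation (20351 of these were matched to RefSeq genes of GRCm38.p6), 691 had several and 1555 none. Each gene was represented by its probe set of highest mean across the 12 arrays. The 3 HDAC9 knockout arrays were compared with the 3 HDAC6 knockout arrays in R 4.3.3 with limma 3.58.1 (eBayes with a mean-variance trend), two-sided, at a Benjamini-Hochberg adjusted p under 0.05 over 12393 genes. An exact test of 3 against 3 arrays cannot go below p = 0.1, so none was used. The procedure was tested on simulated data.

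Named were Hdac6 and Hdac9, the 15 genes of smallest p in each direction, the 4 members of smallest p of each list described, and neighbours of the deleted genes. Genes past 2-fold, promoter motif members and probe sets without a single symbol were chosen after their values were seen, as were Prtn3 and Hspa5. The comparison and the lists were chosen with earlier results of these data known. Alternatives were other variance priors, normalizations, filters on low values, probe-set rules, thresholds, a replicate block, a fit of all 12 arrays and each array left out. Figures used Python 3.11.15 and matplotlib 3.10.9.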

Additional observations from a re-analysis of the deposited data

How the results depend on the processing

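Hdac6 was called under all 20 alternatives, and its difference ran from 1.64 to 1.82 over the fits that left out 1 array. Onecut1 kept its direction under all of them, at 1.13 to 1.20 when 1 array was left out, and was not called in 6: all 12 arrays in the fit (difference 1.17), a minimum change of 1.5-fold (1.17), the replicate block (1.17, limma adjusted p = 0.0534), HDAC6 knockout replicate 2 or HDAC9 knockout replicate 3 left out, and an 11-array fit without HDAC9 knockout replicate 2 (1.19, limma adjusted p = 0.9996), which was added after seeing the data. The count of called genes was therefore 1 in each of these 6, and it ran from 1 to 3 when 1 array was left out; the third gene, without HDAC9 knockout replicate 1, was Fmo1. The replicate numbers did not pair the samples: deviations of same-numbered arrays from their group means correlated at 0.00845, -0.0995 and -0.0667. Over the fits without 1 array, list medians ran from 0.15 to 0.25 for heat shock and ER folding, from -0.2205 to -0.0426 for bile acid genes, from 0.08 to 0.36 for acute phase proteins and from -0.29 to -0.05 for MHC class II. Removing probe sets with shared probes also took Anp32a from 0.50 to 0.02. Signs turned for Fabp4 (-0.19) and Mcm3 (0.0661) when probe sets with shared probes were removed, and for Hdac9 without HDAC6 knockout replicate 3 (range -0.2122 to 0.0265 without 1 array); the cause was not tested. Over the lists and alternatives, 385 medians stayed within the spread between arrays and 29 moved beyond it. Median centring moved the median of all genes by 0.01. With 3 arrays per group, differences near the median SE of 0.12 cannot be seen. Larger ones went uncalled too, such as Ntrk2 at -1.06 (SE 0.16, limma adjusted p = 0.240) and Pdia3 at 0.43 (SE 0.08, limma adjusted p = 0.689). The low count of called genes therefore does not show that the knockouts were alike.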

Other observations

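Gene groups that the report does not describe differed by small amounts between the knockouts, and 0 of their members were called by limma. Of 34 genes of amino acid catabolism, urea synthesis and sulfur metabolism, 3 were higher and 31 lower in the HDAC9 knockout, with a median of -0.09; without HDAC9 knockout replicate 2 the counts were 13 and 21 and the median -0.05. Proteasome subunits were higher in 27 of 31 cases by a median of 0.05, and in 29 of 31 by 0.08 without that array, with 0 at an unadjusted limma p under 0.05. PPAR-alpha targets and beta-oxidation genes were higher in 20 of 31 cases and, without that array, in 27 of 31, with a median of 0.14; HDAC9 knockout replicate 1 had the highest centred median at 0.33 and the other 5 arrays lay between -0.13 and 0.10. Interferon response genes were higher in 21 of 30 cases by a median of 0.15, which became -0.09 without HDAC9 knockout replicate 3. Of 44 subunits of oxidative phosphorylation 29 were lower, with a median of -0.03. The 8 erythroid markers, including heme synthesis genes, had a median of 0.26, with 3 higher at an unadjusted limma p under 0.05. Periportal genes differed by -0.18 to 0.28 with a median of -0.02.

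Among the genes past 2-fold, several varied strongly within a group. Bcl6, a repressor of the growth hormone axis, read 8.39, 8.56 and 7.42 in the HDAC6 knockout, 7.43, 5.68 and 7.73 in the HDAC9 knockout, and 8.18, 6.16 and 5.95 in chow liver. Serpinb1a, a protease inhibitor, read 7.92, 8.82 and 8.67 against 9.06, 6.12 and 6.64, and chow liver 6.52 to 7.41. Slc41a2, a magnesium transporter, read 8.21, 7.44 and 7.19 against 7.48, 9.98 and 9.03, while the 6 wild-type arrays stayed between 6.48 and 6.85. Slc15a2, a peptide transporter, read 5.52, 6.27 and 6.94 against 4.49, 6.14 and 4.55.

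Probe sets outside the comparison of named genes held no call. Of the 691 with several symbols, 0 were called by limma and 22 had an unadjusted p under 0.05, and of the 1555 with none, 0 were called and 53 had an unadjusted p under 0.05. The smallest limma adjusted p among them was 0.198, for a probe set with several symbols that read 8.45, 8.30 and 8.14 in the HDAC6 knockout and 7.49, 7.49 and 7.50 in the HDAC9 knockout.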
